A study of Mus musculus with 9 samples.

Results

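The subunits of the respiratory chain and of ATP synthase were examined in libraries of Tregs from injured heart, spleen and mediastinal lymph node (MLN). Members were chosen by gene name, as the mitochondrially encoded mt-Nd, mt-Co, mt-Cyt and mt-Atp genes and the nuclear Nduf, Sdh, Uqcr, Cox4 to Cox8 and Atp5 genes, leaving out names with -ps. This gave 97 of the 49510 genes of the table, 13 encoded in the mitochondrial genome and 84 in the nucleus. Complex I held 42 of them, complex II 4, complex III 9, complex IV 22 and complex V 17, and the other 3 were the assembly or supercomplex factors Cox7a2l, Atp5s and Atp5sl. Cox8c and Cox7b2 had no count in any library, and the other 95 passed the filter on low counts and were tested.

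The respiratory chain passes electrons from NADH through complex I, or from succinate through complex II, to ubiquinone, then through complex III and cytochrome c to oxygen at complex IV. Complexes I, III and IV pump protons across the inner mitochondrial membrane, and complex V, ATP synthase, uses the gradient to make ATP. Complex II is encoded wholly in the nucleus, while the other complexes combine nuclear and mitochondrial subunits. Regulatory T cells are known to rely on oxidative phosphorylation, and heart muscle is among the tissues richest in these complexes, some of which it builds with muscle isoforms of complex IV subunits.

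All libraries were labelled as regulatory T cells (Tregs) of 8-week-old mice of the strain Foxp3-GFP, in which a green fluorescent protein reports Foxp3, and all mice had myocardial ischemia/reperfusion (I/R) injury 3 days earlier. There was no uninjured group. Cells were double-sorted on magnetic beads and by flow cytometry, and cDNA was prepared with a SMARTer kit for ultra-low RNA input. Each organ had 3 libraries, and the labels do not say whether these came from separate animals or pools, so p-values measure only the spread between libraries, part of which may be technical. In bulk libraries, fewer cells of a type and less RNA per cell cannot be told apart.

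Totals ranged from 156194012 to 267520538 counts per library. The gate was checked against its own markers: the summed level of 10 T cell and Treg genes was 4739 to 7227 CPM (each count scaled to its library's TMM-adjusted total, so that libraries are comparable) in the lymphoid libraries and 2374 to 3386 CPM in the heart libraries. Foxp3 was at 31.2, 32.6 and 187.3 CPM in spleen libraries 1, 2 and 3, at 42.4, 41.8 and 46.3 CPM in the MLN and at 8.77, 38.0 and 0.24 CPM in the heart, so heart 3 nearly lacked the transcript that defines the sort. The other Treg genes of the list were present in heart 3. In heart 1, 2 and 3, Ikzf2 was at 293.5, 229.3 and 350.1 CPM and Ctla4 at 363.1, 552.4 and 314.7 CPM. Il2ra was at 266.8, 169.0 and 160.5 CPM. Among the heart libraries, heart 3 was thus lowest for Ctla4 and Il2ra and highest for Ikzf2. Lymphoid libraries had 936.0 to 2093 CPM of Ikzf2, 544.6 to 925.7 CPM of Ctla4 and 244.8 to 660.1 CPM of Il2ra. Markers of other cells stood in libraries of every organ. Heart libraries had 3826 to 22560 CPM of 10 fibroblast genes (1.26 to 16.4 CPM elsewhere) and 6187 to 11700 CPM of 10 macrophage and monocyte genes (254.8 to 2571 CPM elsewhere). The sum of 8 neutrophil genes was 784.9, 730.2 and 3911 CPM in heart 1, 2 and 3 and at most 34.1 CPM elsewhere. Lymphoid libraries had 857.2 to 5080 CPM of 8 B cell genes, and heart libraries 61.8 to 125.0 CPM. Spleen 3, MLN 3 and heart 2 stood apart from the other libraries of their organ, with the highest scaling factors (1.24, 1.17 and 1.11). Heart 1 and heart 3 had the lowest factors (0.754 and 0.829), and the other lymphoid libraries lay from 0.975 to 1.01. A factor below 1 raises the CPM of a library, so heart 1 and heart 3 were raised by the scaling.

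A total of 4 members were higher in every heart library than in every lymphoid library, and all 4 belong to complex IV: the striated muscle isoforms Cox6a2, Cox7a1 and Cox8b, and Ndufa4l2, a paralog of the complex IV subunit Ndufa4 known to be induced by hypoxia. Uqcrc1 and Ndufs7 were lower in every heart library than in every lymphoid library. These are 4 (higher) and 2 (lower) of 95 members, where 9.48% and 3.91% of all 16609 genes tested behaved so. A gene without lymphoid counts passed the filter on low counts only if every heart library had counts. For Cox8b and Ndufa4l2 the lack of overlap was thus set by the filter, as for other such genes within the 9.48%. No subunit passed the test, an edgeR quasi-likelihood test adjusted over all genes by the Benjamini-Hochberg method with a threshold of 0.05. This held for 0 of 95 members in heart against spleen, where 0.789% of all genes were called, in heart against MLN, where 1.38% were called, and in MLN against spleen, where 0.0% were called.

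Cox8b encodes the muscle isoform of subunit 8, a small part of complex IV. It had no count in any of the 6 lymphoid libraries and 483, 246 and 819 counts in heart 1, 2 and 3. In CPM the heart libraries were at 2.71, 0.98 and 3.71, a mean of 2.47 ± 1.38 CPM (SD, n = 3), which is at least 168.8-fold higher than the spleen and at least 187.2-fold higher than the MLN when a count of 0 is taken as 3 counts per library. The edgeR adjusted p was 0.114 against the spleen and 0.101 against the MLN. Within the pair of isoforms, Cox8b made up 0.192% (95% exact binomial interval 0.176 to 0.21), 0.214% (0.188 to 0.243) and 0.269% (0.251 to 0.288) of Cox8a plus Cox8b counts in the 3 heart libraries, so the widespread isoform Cox8a held nearly all counts there too. In the lymphoid libraries, with 0 counts of Cox8b, the upper end of the same interval was at most 0.00359%. Such intervals and floors cover counting error only, since these PCR-amplified reads carry no molecular identifiers and are not independent.

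Cox7a1, the muscle isoform of subunit 7a, was detected in all 9 libraries. It had 156, 207 and 15 counts in spleen 1, 2 and 3, then 125, 98 and 129 in the MLN and 1204, 449 and 2246 in the heart. All heart libraries lay above all lymphoid ones, at 6.24 ± 4.21 CPM against 0.68 ± 0.54 CPM in the spleen and 0.51 ± 0.08 CPM in the MLN (SD, n = 3 each). The log2 fold change was 3.20 (SE 1.37, edgeR adjusted p = 0.357) against the spleen and 3.60 (SE 1.39, edgeR adjusted p = 0.259) against the MLN. Its share of Cox7a2 plus Cox7a1 counts was 0.649% to 0.965% in the heart and 0.0292% to 0.204% in the lymphoid libraries.

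Both Cox7a1 and Cox8b lie on chromosome 7 of mm10, at 30184144 to 30186078 and at 140898945 to 140900446. The windows from 250 bases before to 50 after their RefSeq start sites (build GRCm38.p6) are shown with those of their widespread partners, because the pairs encode the same subunit but were counted at very different levels. Each reads 5′ to 3′ on the gene's own strand, and capitals mark matches to the motif CAGCTG, an E-box bound by muscle regulators, or to CCGGAAG, bound by ETS factors such as GABP and written CTTCCGG on the other strand. The windows are chr7:30183921-30184220 (plus strand) for Cox7a1, chr9:79759804-79760103 (minus) for Cox7a2, chr7:140900397-140900696 (minus) for Cox8b and chr19:7217567-7217866 (minus) for Cox8a.
Cox7a1: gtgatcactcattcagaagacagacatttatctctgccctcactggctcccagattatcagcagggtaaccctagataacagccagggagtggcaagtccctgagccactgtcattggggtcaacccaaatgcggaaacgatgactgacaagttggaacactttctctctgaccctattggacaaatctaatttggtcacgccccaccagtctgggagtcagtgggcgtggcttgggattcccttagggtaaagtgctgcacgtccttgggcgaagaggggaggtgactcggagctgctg
Cox7a2: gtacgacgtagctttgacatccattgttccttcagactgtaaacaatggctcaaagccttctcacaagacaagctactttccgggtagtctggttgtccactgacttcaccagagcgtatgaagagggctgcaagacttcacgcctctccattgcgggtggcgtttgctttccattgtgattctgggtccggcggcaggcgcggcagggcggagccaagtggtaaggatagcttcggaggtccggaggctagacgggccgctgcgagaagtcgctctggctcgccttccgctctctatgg
Cox8b: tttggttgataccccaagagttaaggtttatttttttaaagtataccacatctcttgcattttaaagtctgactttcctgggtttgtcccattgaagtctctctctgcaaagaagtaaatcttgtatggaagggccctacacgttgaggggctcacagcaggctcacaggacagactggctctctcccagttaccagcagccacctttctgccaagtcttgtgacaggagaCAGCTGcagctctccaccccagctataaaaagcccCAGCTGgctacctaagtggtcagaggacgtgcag
Cox8a: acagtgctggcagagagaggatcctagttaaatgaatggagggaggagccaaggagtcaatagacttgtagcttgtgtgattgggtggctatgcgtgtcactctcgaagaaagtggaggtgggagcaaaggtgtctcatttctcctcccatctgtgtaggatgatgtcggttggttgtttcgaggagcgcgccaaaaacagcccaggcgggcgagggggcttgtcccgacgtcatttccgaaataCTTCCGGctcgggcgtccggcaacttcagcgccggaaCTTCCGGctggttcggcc
The windows of Cox7a1 and Cox8b held 7 and 2 CpG pairs, and those of Cox7a2 and Cox8a held 20 and 19. Cox8b had 2 matches to CAGCTG, with first bases at -19 and 17 when the start site is counted as 1, and Cox8a had 2 to CCGGAAG, at -5 and 33. Cox7a1 and Cox7a2 had no match to these motifs, and Cox7a2 had 1 GC box, GGGCGG, which is not capitalised.

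Across the nuclear members, 69 of 84 had a RefSeq window, 3 of them found by a synonym, and these had 75 windows. Motifs were searched on both strands, and the same letters were counted in all 32851 windows of the table. The letters GCGCA and GCGC with any 1 base between them, bound by NRF1, a regulator of respiratory genes, were in 24.0% of member windows and 4.60% of all windows. CCGGAAG was in 21.3% and 8.86%, and AAGATGGCG, bound by YY1, in 12% and 1.40%. TCAAGGTCA, bound by the estrogen-related receptors, was in 2.67% and 0.423%, and the GC box of SP1, GGGCGG, in 38.7% and 35.7%. The muscle motifs CAGCTG (8.0% and 16.3%) and CTA and TAG with any 4 bases between them, of MEF2 factors (1.33% and 3.69%), were rarer in member windows. Matches to different motifs may overlap in a window and were counted for each. Median GC content was 57.3% in member windows and 52.7% in all, and the median number of CpG pairs was 19 and 7. The windows were not matched on GC content or on CpG pairs, so these shares do not separate motifs from base composition.

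Cox6a2, the muscle isoform of subunit 6a (chromosome 7, 128205435 to 128206387, mm10), had 528, 117 and 1949 counts in heart 1, 2 and 3. Spleen 3 had 79 counts and the other 5 lymphoid libraries had none. Heart libraries averaged 4.08 ± 4.29 CPM (SD, n = 3), at least 309.9-fold above the MLN, with an edgeR adjusted p of 0.170 against the MLN and 0.519 against the spleen. Its share of Cox6a1 plus Cox6a2 counts was 0.215%, 0.0983% and 0.683% in the heart and 0.0775% in spleen 3.

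The sum of cardiomyocyte markers was higher in the same heart libraries, though not every marker was. The summed level of 14 such markers ranged from 13.5 to 53.8 CPM in spleen libraries, from 5.64 to 9.29 CPM in MLN libraries and from 236.7 to 547.2 CPM in heart libraries, where 12 or 13 of the 14 had a count. Of the 14, 8 had no count in any lymphoid library, among them Myl2, Mb and Fabp3, which encode a myosin light chain, myoglobin and a fatty acid binding protein. These 3 of the 12 markers tested were called higher in the heart against both lymphoid organs (0.789% and 1.38% of all genes were called). Ttn, the giant sarcomere protein titin, went the other way, at 12.9 to 52.6 CPM in spleen libraries, 5.63 to 8.52 CPM in MLN libraries and 1.66 to 5.64 CPM in heart libraries, and made up most of the lymphoid sums. Others overlapped between heart and lymphoid libraries. Tnnt2 was at 0.86 CPM in heart 1 and 1.06 CPM in spleen 2. Ryr2 was at 0 in heart 2 and 1.72 CPM in spleen 1, and Csrp3 at 0 in heart 2 and 1.54 CPM in MLN 1. Mb was at 61.0, 110.3 and 345.1 CPM in heart 1, 2 and 3. The summed level of Cox6a2, Cox7a1 and Cox8b was 12.4, 3.24 and 22.7 CPM in the same libraries. The part of other cells in these subunit counts was not tested.

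Ndufa4l2 (chromosome 10, 127514967 to 127517154, mm10) had no count in the 6 lymphoid libraries and 1469, 1665 and 1236 counts in heart 1, 2 and 3. It had the smallest relative spread of the 4, at 6.83 ± 1.33 CPM in the heart (SD, n = 3), at least 467.3-fold above the spleen and at least 518.3-fold above the MLN. It had the lowest edgeR adjusted p of the members, 0.0774 against the spleen and 0.0686 against the MLN. Ndufa4l2 made up 1.28%, 3.95% and 0.884% of Ndufa4 plus Ndufa4l2 counts in the 3 heart libraries. It is known in pericytes and smooth muscle, and 9 markers of these cells summed to 282.4, 174.8 and 46.4 CPM in heart 1, 2 and 3 and to at most 3.94 CPM in a lymphoid library, with Cnn1 at 0 in all 9. Of the 7 tested, 1, the pericyte gene Rgs5, was called higher against both organs (0.789% and 1.38% of all genes were called). The smooth muscle myosin Myh11 was at 3.63 CPM in MLN 2 and at 0.824, 0 and 0 CPM in heart 1, 2 and 3. The part of these cells was not tested. Cox6a2 and Ndufa4l2 are named without a promoter window.

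**Figure D1:**
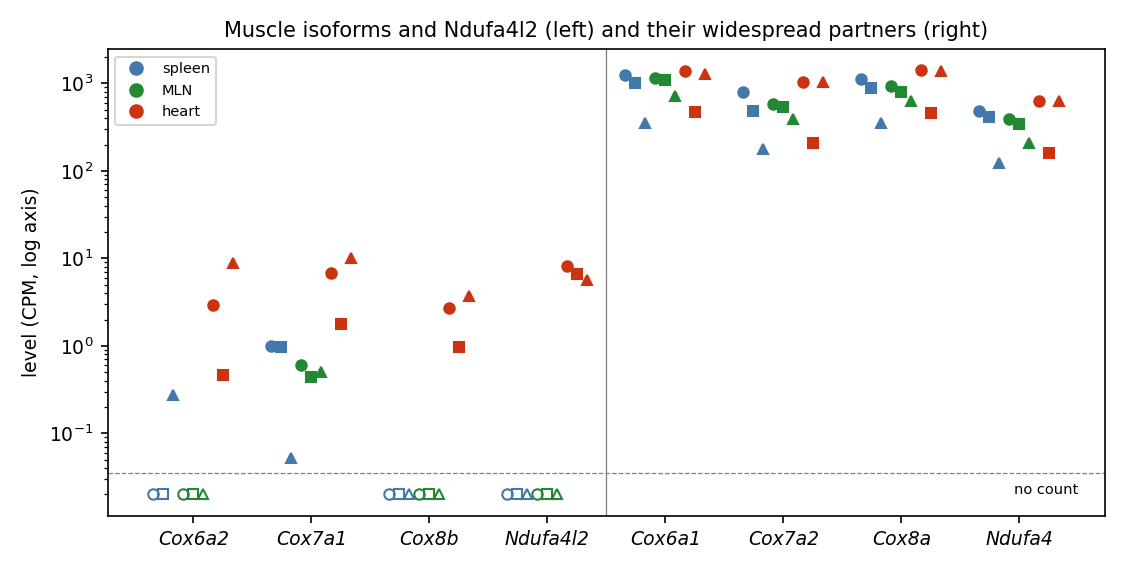
Level in CPM (log axis) of the muscle isoforms Cox6a2, Cox7a1 and Cox8b, of Ndufa4l2 and of their widespread partners, 1 symbol per library (circle, square and triangle for libraries 1, 2 and 3) and open symbols for libraries with no count. The heart symbols of the 4 genes on the left lie above every lymphoid symbol and below 11 CPM, while the partners on the right lie above 100 CPM with organs that overlap.

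The widespread partners did not separate the organs. Cox6a1 was at 867 ± 461 CPM in the spleen, 989.1 ± 230.2 CPM in the MLN and 1043 ± 494 CPM in the heart (SD, n = 3 each). Cox7a2, Cox8a and Ndufa4 had log2 fold changes of 0.66, 0.47 and 0.47 against the spleen and 0.60, 0.46 and 0.60 against the MLN, and the libraries of each overlapped between organs (edgeR adjusted p from 0.797 to 0.924). The other pair of complex IV isoforms did not follow the muscle pattern. Cox4i2, known from lung and smooth muscle, had 731, 0 and 1390 counts in the spleen, 1252, 2019 and 0 in the MLN and 8805, 0 and 3246 in the heart. Each organ thus had 1 library with none and the groups overlapped, with log2 fold changes of 2.75 (SE 3.08, edgeR adjusted p = 0.884) against the spleen and 2.09 (SE 3.00, edgeR adjusted p = 0.865) against the MLN. Cox4i2 was the highest and Cox4i1, its widespread partner, the lowest of the nuclear complex IV members of at least 10 CPM in the higher organ, and Cox4i1 was at -0.14 (SE 0.46) and -0.09 (SE 0.46). Cox6b2, a testis isoform, had 0 to 235 counts per library.

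In complex I, core subunits carry the electron path and accessory subunits surround them. Ndufs7, the core subunit that holds the last iron-sulfur cluster before ubiquinone (chromosome 10, 80249121 to 80256794, mm10), was at 193.8, 261.8 and 179.8 CPM in the spleen, 218.6, 223.9 and 265.0 CPM in the MLN and 179.3, 116.8 and 148.1 CPM in the heart. The heart libraries were the 3 lowest, though heart 1 and spleen 3 were nearly equal. The log2 fold change was -0.52 (SE 0.30, edgeR adjusted p = 0.568) against the spleen and -0.67 (SE 0.31, edgeR adjusted p = 0.339) against the MLN, and with DESeq2 size factors the groups overlapped. Ndufv1, the subunit that binds NADH, was the lowest nuclear complex I member by fold change, at -0.74 (SE 0.51) and -0.78 (SE 0.51). Its libraries overlapped, since heart 2 was at 43.5 CPM and heart 1 and 3 at 13.6 and 19.4 CPM. The highest nuclear members were the accessory subunits Ndufv3 against the spleen (0.78, SE 0.61) and Ndufa1 against the MLN (0.61, SE 0.59), whose heart libraries also overlapped with the others. Ndufa1 was at 1227, 278.4 and 1002 CPM in heart 1, 2 and 3, so heart 2 was low where it was high for Ndufv1. Of the 35 nuclear members of complex I, 28 had a positive fold change against the spleen and 26 against the MLN, with medians of 0.44 and 0.27.

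In complex II, the iron-sulfur subunit Sdhb had the highest fold change (log2 0.34, SE 0.50, against the spleen and 0.23, SE 0.50, against the MLN). The membrane anchors were lowest, Sdhc at -0.47 (SE 0.34) against the spleen and Sdhd at -0.61 (SE 0.43) against the MLN. Medians over the 4 subunits were -0.16 and -0.11, and all 4 overlapped between organs.

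In complex III, Uqcrc1, a core protein that faces the matrix (chromosome 9, 108936633 to 108949623, mm10), was at 274.6, 215.4 and 255.7 CPM in the spleen, 234.3, 281.7 and 258.3 CPM in the MLN and 67.3, 194.2 and 92.3 CPM in the heart. All heart libraries lay below all others, under each of the 3 scalings tried. The log2 fold change was -1.08 (SE 0.41, unadjusted p = 0.0304, edgeR adjusted p = 0.297) against the spleen and -1.13 (SE 0.42, unadjusted p = 0.0248, edgeR adjusted p = 0.233) against the MLN. Its partner Uqcrc2 was at -0.38 (SE 0.34) and -0.84 (SE 0.34, edgeR adjusted p = 0.281), and its libraries overlapped. Uqcrb, a small subunit near the ubiquinone site, had the highest change of the complex, at 0.99 (SE 0.60) and 0.87 (SE 0.60), with heart 2 at 268.8 CPM and heart 1 and 3 at 1070 and 1075 CPM.

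Among the nuclear members of complex V, Atp5l, subunit g of the membrane part, was highest (log2 0.89, SE 0.55, and 0.64, SE 0.55). Atp5g2, 1 of the genes for the proton-carrying c ring, was lowest, at -0.67 (SE 0.51) and -0.92 (SE 0.51, edgeR adjusted p = 0.461). Atp5g2 was at 726.8, 548.7 and 478.7 CPM in the MLN and 292.4, 188.2 and 447.2 CPM in the heart, which did not overlap, while the spleen, at 773.0, 485.9 and 212.5 CPM, overlapped with the heart. Medians over the 15 nuclear members were 0.09 in both comparisons.

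Among the other factors, Cox7a2l, which joins complexes III and IV into supercomplexes (chromosome 17, 83501918 to 83517330, mm10), was at 1116, 1269 and 934.6 CPM in the spleen, 1426, 1435 and 1204 CPM in the MLN and 965.1, 498.1 and 680.1 CPM in the heart. Heart and MLN did not overlap, and heart 1 lay just above spleen 3. The log2 fold change was -0.63 (SE 0.33, edgeR adjusted p = 0.467) against the spleen and -0.92 (SE 0.33, unadjusted p = 0.0211, edgeR adjusted p = 0.214) against the MLN. By share of raw counts, Cox7a2l with Atp5s and Atp5sl took 0.0566% to 0.0746% in the heart, 0.115% to 0.131% in the spleen and 0.143% to 0.148% in the MLN, without overlap. Cox7a2l held most of these counts, so the sum does not describe the other factors. Atp5s went the other way, at log2 0.81 (SE 0.81) against the spleen and 0.42 (SE 0.81) against the MLN. Its heart libraries, at 27.7, 5.80 and 71.0 CPM, overlapped with the others. Atp5sl, a complex I assembly factor despite its name, was at 2.48, 7.19 and 2.94 CPM in the heart and 10.97, 9.34 and 18.1 CPM in the spleen. The MLN libraries, at 5.54, 5.85 and 14.25 CPM, overlapped with the heart. The edgeR adjusted p of Atp5sl was 0.432 against the spleen and 0.652 against the MLN.

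Organ by organ, 4 members lay above and 3 below without overlap in heart against spleen (12.4% and 6.9% of all genes), 4 above and 4 below in heart against MLN (14.9% and 11.2%), and none in MLN against spleen (4.52% and 4.56%). At an unadjusted p under 0.05, Cox8b, Ndufa4l2 and Cox7a1 were higher (9.01% of all genes) and Uqcrc1 lower (4.62%) against the spleen. Against the MLN, Cox8b, Cox6a2, Ndufa4l2 and Cox7a1 were higher (10.3%) and Cox7a2l, Uqcrc1 and Uqcrc2 lower (5.23%), and in MLN against spleen 0 members met it (5.75% in either direction). Both heart comparisons share the heart libraries, so they are not independent. The DESeq2 Wald test called 3 members higher against the spleen, Cox8b, Ndufa4l2 and Cox7a1 (7.94% of all genes), 4 against the MLN, these 3 and Cox6a2 (9.38%), and 0 in MLN against spleen (4.73%). The limma-voom test called Cox8b and Ndufa4l2 higher against the spleen (5.76%), Cox8b, Cox6a2 and Ndufa4l2 against the MLN (6.47%) and 0 members in MLN against spleen (0.0181%). With edgeR fitted to only the 2 organs compared, Ndufa4l2 was called higher against the MLN (adjusted p = 0.0371, with 3.16% of all genes called higher), and 0 members were called against the spleen (1.92%) or in MLN against spleen (0.0%).

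Most fitted fold changes of the members were positive in the heart comparisons, without any of them passing the test. Against the spleen 73 of 95 were positive, with a median log2 fold change of 0.46 where the median of all genes tested was 0.02. Against the MLN 71 were positive, with a median of 0.30 where all genes had 0.12. Scaling by library totals without TMM moved the median of all genes to -0.24 and -0.10, and then 60 and 46 members were positive, with medians of 0.15 and -0.02. Without heart 1 the count against the MLN was 46 of 95, and without spleen 3 the count against the spleen was 64. Without spleen 3 the members' median against the spleen was 0.13 where all genes had 0.28, and without MLN 3 their median against the MLN was 0.19 where all genes had 0.30, so in these fits the members lay below all genes. In MLN against spleen 75 were positive, and 21 without spleen 3. Of all 16609 genes tested, 8459 were positive against the spleen, 8880 against the MLN and 7896 in MLN against spleen.

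**Figure D2:**
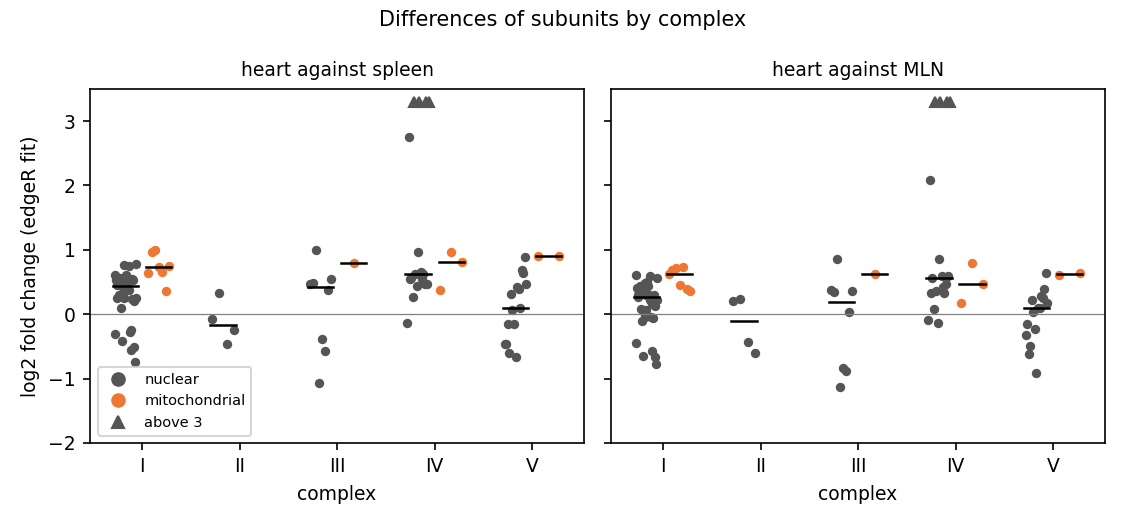
Fitted log2 fold change of each tested member of complexes I to V in heart against spleen (left) and heart against MLN (right), by complex, with nuclear members in grey, mitochondrial members in orange, medians as black lines and values above 3 as triangles. The triangles are Cox6a2, Cox7a1, Cox8b and Ndufa4l2 in complex IV, and all mitochondrial members lie above 0 under TMM scaling with all 9 libraries, which no longer holds without heart 3.

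The 13 mitochondrially encoded subunits had positive fold changes in 13 of 13 against both lymphoid organs, with medians of 0.80 against the spleen and 0.62 against the MLN, and none was called (lowest edgeR adjusted p 0.501 and 0.642). This direction depended on heart 3. mt-Co1, the catalytic core of complex IV, was at 1990, 1578 and 728.3 CPM in the spleen, 2122, 1499 and 1336 CPM in the MLN and 1775, 855.6 and 2953 CPM in the heart. mt-Cytb, the cytochrome of complex III, was at 2036, 1507 and 425.3 CPM, 1997, 1628 and 836.6 CPM, and 3241, 497.1 and 3176 CPM, so for this gene heart 1 was slightly above heart 3. mt-Atp6, the proton channel subunit of complex V, was at 1424, 859.0 and 346.2 CPM, 1329, 1205 and 680.8 CPM, and 1472, 495.4 and 2940 CPM. Heart 3 was the highest of the 9 libraries for mt-Co1 and mt-Atp6, and the organs overlapped for all 13. Without heart 3, 9 of 13 were positive against the spleen (median 0.16) and 5 of 13 against the MLN (median -0.08). By library totals without TMM, 13 and 12 of 13 were positive.

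As a share of all counts, the mitochondrial subunits took 0.903%, 0.648% and 0.309% in the spleen, 0.861%, 0.674% and 0.578% in the MLN and 0.755%, 0.385% and 1.30% in heart 1, 2 and 3. Means were 0.620 ± 0.298%, 0.704 ± 0.144% and 0.812 ± 0.459% (SD, n = 3 each). The nuclear subunits took 4.61%, 3.96% and 2.27%, then 4.38%, 4.23% and 3.87%, then 4.53%, 2.34% and 3.90%, with means of 3.61 ± 1.21%, 4.16 ± 0.261% and 3.59 ± 1.13%. Organs overlapped in both. Mitochondrial counts were 13.6% to 19.7% of nuclear subunit counts in 8 libraries and 33.3% in heart 3, the library with 0.24 CPM of Foxp3. Heart 3 was also highest and spleen 3 lowest for the summed level of both mitochondrial ribosomal RNAs, at 12230 and 1043 CPM.

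**Figure D3:**
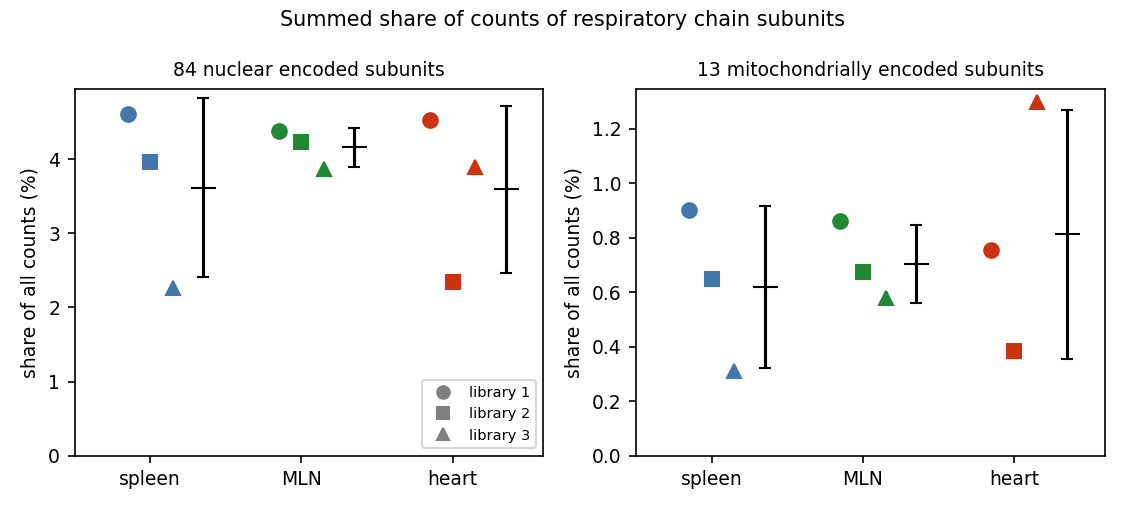
Share of all counts (%) of the 84 nuclear subunits (left) and the 13 mitochondrial subunits (right) by organ, 1 symbol per library, with the mean and SD of 3 libraries as a bar beside them. Spleen 3 (2.27%) and heart 2 (2.34%) are lowest for nuclear subunits, and heart 3 (1.30%) is highest for mitochondrial ones.

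The mitochondrial members shared reads with nuclear copies of themselves. A run of unprocessed pseudogenes on chromosome 1, between 24611535 and 24616197 (mm10), repeats mt-Nd4 to mt-Co1 at 99.7% identity or more in the aligned parts. In this table the copies held 49.98% to 50.05% of the summed counts of mt-Co2 and its copies in the 9 libraries, 50.4% to 50.7% for mt-Atp6, 49.94% to 49.97% for mt-Co3 and 48.7% to 49.8% for mt-Nd4l. The share was 42.3% to 45.1% for mt-Nd3, 18.5% to 27.3% for mt-Co1 and 16.7% to 24.8% for mt-Nd4, whose copies on chromosome 1 are partial. It was at most 0.148% for the other 6, among them mt-Cytb, mt-Nd1 and mt-Atp8. Only annotated transcripts were searched for copies. mt-Atp8 lies mostly between mt-Co2 and mt-Atp6, and the run on chromosome 1 has no annotated copy between those of these 2 genes. A share of 0 for mt-Atp8 thus does not show that it lacks a copy. How reads with more than 1 place were counted is not given in the sources used here, and reads of a gene and an identical copy cannot be told apart.

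**Figure D4:**
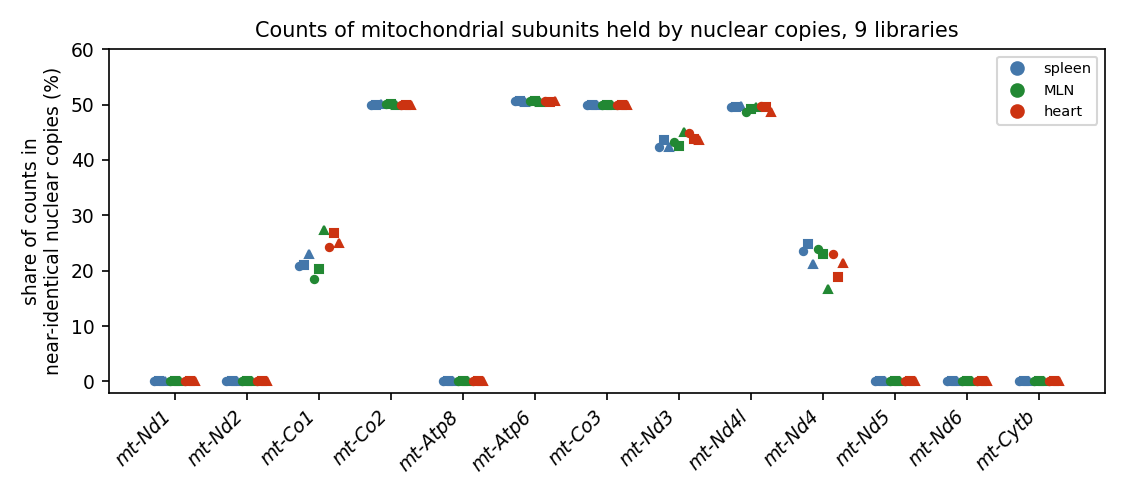
Share of counts (%) that annotated near-identical nuclear copies held for each mitochondrial subunit, 1 symbol per library, in the order of the genes on the mitochondrial genome. The share is near 50% in all 9 libraries for mt-Co2, mt-Atp6, mt-Co3 and mt-Nd4l, between 16.7% and 45.1% for mt-Nd3, mt-Co1 and mt-Nd4, and near 0 for the other 6.

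Adding the copies changed the order of levels among mitochondrial genes. Per kilobase of coding sequence, mt-Atp6 was the highest mitochondrial subunit at 1762 CPM per kilobase as a mean over the 9 libraries, and at 3567 with its copy added. mt-Co2 moved from rank 6 (819.1) to rank 2 (1638), with mt-Cytb at 1490 and mt-Co1 at 1069 (1386 with copies). Only annotated copies were added, so mt-Atp8 stayed at 1084 and the ranks hold for these copies only. Mean levels were almost equal for mt-Co2 (557.8 CPM) and its copies (558.0 CPM), and for mt-Co3 (418.2 CPM) and its copy (417.5 CPM). If a read was counted at each place it matched, adding the copies counts that read again. The levels, ranks and shares with copies given here would then be inflated, and this was not tested. Library by library, mt-Co2 with copies lay above mt-Cytb in 6 and below it in 3, heart 1, MLN 1 and MLN 2, so the order of this pair was not the same in all libraries. mt-Nd3 was lowest either way (41.6 and 73.6). With copies added, the summed share of counts was 0.842 ± 0.405% in the spleen, 0.968 ± 0.183% in the MLN and 1.14 ± 0.664% in the heart (SD, n = 3 each), and heart 3 remained the highest library at 1.85%. Overlapping pairs on the same strand, mt-Atp8 with mt-Atp6 and mt-Nd4l with mt-Nd4, may also share reads. So may mt-Nd5 and mt-Nd6, which overlap on opposite strands, since use of strand is not stated. Among nuclear members, 3 had 10% or more of such counts in copies: Atp5g1 (17.9%), Atp5l (12.9%) and Ndufa12 (10.4%).

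Nuclear members spanned a wide range of levels per kilobase of the longest annotated coding sequence. Reads also fall on untranslated parts, so this measure favours genes whose coding sequence is a small part of the transcript. Cox8a, for example, has 207 coding nucleotides in a transcript of 550, so its rank depends on the length used. Atp5o, which links the ATP synthase head to its stalk, was far highest at 14650 CPM per kilobase, followed by Cox6b1, a complex IV subunit on the intermembrane side (9383), and Cox8a (4257). The highest in the other complexes were Ndufa1 in complex I (3063), Uqcrh in complex III (2290) and Sdhb in complex II (1197). Atp5o was at 7802 ± 3466 CPM in the spleen, 9533 ± 1348 CPM in the MLN and 10750 ± 6578 CPM in the heart (SD, n = 3 each). Its heart libraries ran from 5016 to 17930 CPM, wider than the difference between organ means. Without Atp5o, the mean share of all counts of the nuclear subunits was 2.80% in the spleen, 3.17% in the MLN and 2.70% in the heart.

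In spleen 3 and heart 2, the difference from the other libraries of the organ varied with coding length. In spleen 3, 63 of 64 nuclear members with under 1000 coding nucleotides and at least 20 CPM were below the mean of the other 2 spleen libraries, with a median log2 difference of -1.50. In heart 2 this was 62 of 64, with a median of -1.58, and in MLN 3 it was 57 of 64, with a median of -0.40. All genes of that length had medians of -0.70, -0.74 and -0.36 in the same libraries. Among the 11 nuclear members of 1000 nucleotides or more, medians were 0.17 in spleen 3, 1.30 in heart 2 and -0.30 in MLN 3, where all genes had 0.38, 0.31 and 0.19. In heart 2, 6 of the 11 were higher and 5 lower, among them Ndufv3 at -2.06. In MLN 3, 8 of the 11 were lower. Sdha, the flavoprotein of complex II, was at 84.5, 93.1 and 273.9 CPM in the spleen and 110.0, 239.5 and 79.6 CPM in the heart. Atp5b, the catalytic beta subunit, was at 124.4, 139.9 and 314.3 CPM in the spleen and 83.8, 239.2 and 96.7 CPM in the heart. Both genes were thus highest in the spleen and heart libraries where Atp5o, Cox6b1 and most other short subunits were lowest. Mitochondrial members were lower in spleen 3 and in heart 2 at either length, in 12 of 12 of at least 20 CPM. Whether RNA quality or amplification set these differences was not tested.

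**Figure D5:**
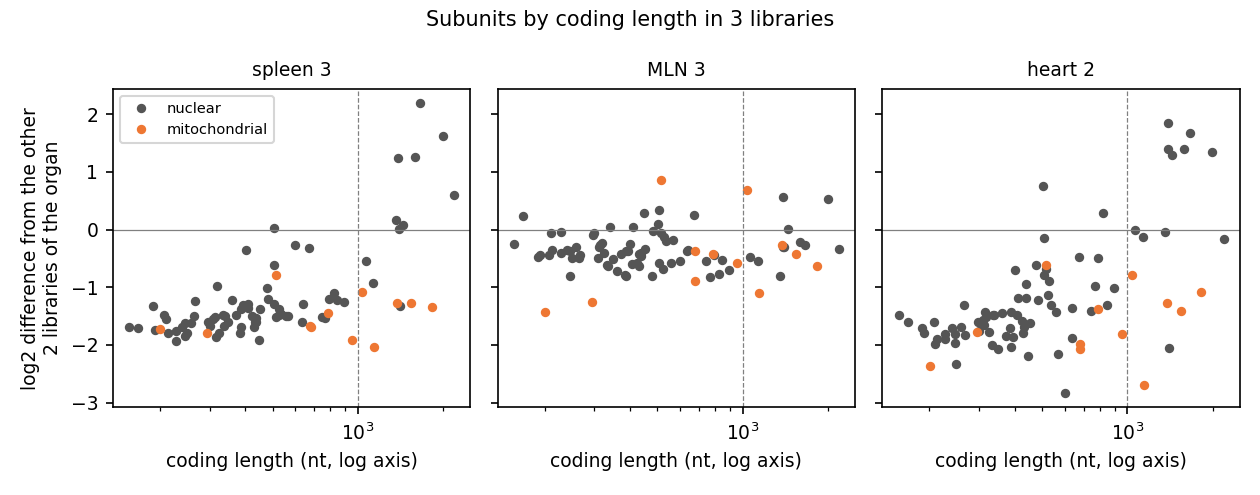
Log2 difference of spleen 3, MLN 3 and heart 2 from the other 2 libraries of the organ for subunits of at least 20 CPM, against coding length in nucleotides (log axis, dashed line at 1000), nuclear members in grey and mitochondrial ones in orange. Short nuclear subunits cluster near -1.5 in spleen 3 and heart 2 while several long ones lie above 0, and MLN 3 shows a smaller shift.

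The counts of separated members differed without these 3 libraries. In the remaining 6, 48 of 95 members lay above the lymphoid libraries (19.3% of all genes) and 12 below (12.7%). With DESeq2 size factors the counts were 52 above and 10 below (20.6% and 11.5% of all genes), and by library totals without TMM 18 above and 19 below (14.7% and 19.4%), so the count above depended on the scaling. Under all 3 scalings Cox6a2, Cox7a1, Cox8b, Ndufa4l2, Uqcrb, Atp5l, mt-Co2 and mt-Cytb were among those above, and Uqcrc1, Ndufs7, Ndufv1, Cox7a2l and Atp5g2 among those below. No member was called without the 3 libraries.

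Other mitochondrial genes were given as counts from lists. Of 46 assembly factors of the complexes, 0 were called in any comparison (0.789%, 1.38% and 0.0% of all genes in heart against spleen, heart against MLN and MLN against spleen), with median log2 fold changes of -0.19 against the spleen and -0.45 against the MLN. Of 30 genes that express the mitochondrial genome, 0 were called, with medians of -0.78 and -1.03, where all genes had 0.02 and 0.12. At an unadjusted p under 0.05, 4 and 6 of them were lower (4.62% and 5.23% of all genes). For the 78 mitochondrial ribosomal proteins, medians were -0.13 and -0.38, and 1, Mrps35, fell against the MLN (edgeR adjusted p = 0.0479). None of 16 tested electron carriers and transporters, 17 tricarboxylic acid cycle genes and 11 tested regulators of mitochondrial biogenesis was called. Their medians were -0.17, -0.22 and 0.27 against the spleen and -0.29, -0.26 and 0.11 against the MLN.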

How the data were processed

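RNA was measured by sequencing in 9 Treg libraries, 3 each from the injured heart, spleen and mediastinal lymph node. The authors deposited raw read counts per gene, not normalized, in 1 table, with 0 value columns that matched no sample. Per the submitters' processing notes, CASAVA 1.8.2, HISAT2, HTSeq 0.6.0 and mm10 were used, and the annotation release, strand setting and treatment of multiply placed reads are not given in the sources used. Gene coordinates and coding lengths came from GENCODE vM21 and promoter windows from RefSeq (GRCm38.p6).

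All genes were tested on the deposited counts with edgeR 4.0.16 in R 4.3.3: filter at a minimum count of 10 and total of 15 (16609 genes kept), TMM scaling, 1 quasi-likelihood model by organ over all 9 libraries (6 residual degrees of freedom), two-sided tests, Benjamini-Hochberg adjustment over all genes, threshold 0.05. The median biological coefficient of variation was 102%. The SE was derived from the F statistic. Alternatives used DESeq2 1.42.0 and limma 3.58.1. The script was tested on simulated data. Copies were found with blastn 2.17.0 at 95% identity or more over at least 50% of a transcript or 300 nucleotides. Library differences used log2(CPM + 0.5). No libraries were near-identical.

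Members and lists were chosen with earlier results of these data known. Named genes were called members, the mitochondrial subunits, isoform pairs, members whose heart libraries did not overlap with the lymphoid ones, and per complex the nuclear member highest per length and those highest and lowest by fold change among members of at least 10 CPM in the higher organ. Cox7a2l, Atp5s, Atp5sl, Cox6b2, Uqcrc2, Sdha and Atp5b were named after their values were seen. Results on an item withheld here are not reported.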

Additional observations from a re-analysis of the deposited data

How the results depend on the processing

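No subunit was called by edgeR under any scaling or filter, without mitochondrial genes, with the replicate block or without any 1 library. The exceptions were DESeq2 (3 against the spleen, 4 against the MLN), limma-voom (2 and 3) and a fit of only heart and MLN (1, Ndufa4l2). Over all genes, 131 were called against the spleen, 210 with a filter of 10 CPM in 3 libraries, 1885 with DESeq2, 1141 with limma-voom, 292 with only both organs fitted, 0 with the replicate block, 3 without spleen 3, MLN 3 and heart 2 together and 0 to 122 without 1 library. Against the MLN, 230 were called, 2199 with DESeq2, 1332 with limma-voom, 548 with only both organs fitted, 0 with the replicate block, 4 without the 3 libraries together and 0 to 249 without 1 library. In MLN against spleen edgeR called 0 (955 at an unadjusted p under 0.05), DESeq2 785, limma-voom 3, the replicate block 0 and fits without 1 library 0 to 0.

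Small fold changes turned sign. Against the spleen, leaving out 1 library gave -0.463 to 0.192 for Cox4i1 (positive without spleen 2 or heart 2), -0.093 to 0.691 for Sdhb (negative without heart 1) and -0.524 to 0.16 for Sdhd (positive without spleen 1). Against the MLN, it gave -0.333 to 0.131 for Cox4i1 (positive without MLN 1, MLN 3 or heart 2), -0.056 to 0.994 for Ndufv3 and -0.202 to 0.549 for Sdhb (both negative without heart 1). Cox4i1 was at 0.009 with DESeq2 size factors in edgeR, 0.009 with DESeq2 and 0.24 without the 3 libraries together, Cox4i2 at -2.48 with the replicate block and Sdhb at -0.079 by library totals. The mitochondrial share in the MLN moved to 0.968% with nuclear copies added, by construction. The cause of the other changes was not tested.

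Replicate numbers are shared across organs in the labels, but deviations of same-numbered libraries correlated at -0.127 to 0.114, so the numbers were not taken to pair the libraries. Leaving out spleen 3, MLN 3 and heart 2 together, library totals without TMM and adding copies were chosen after seeing the data. With 3 libraries per organ, the spread between libraries and not the depth limits these comparisons: 95% intervals of the summed shares reached at most 0.0033 percentage points to either side.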
